A study of Mus musculus with 52 samples.

Results

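The mitochondrial ribosomal protein genes of mouse are followed here through the growth of intestinal organoids under a retinoid and under an antagonist of retinoid X receptors. The genes were taken by symbol, as Mrpl or Mrps followed by digits and at most 1 letter, which found 78 of the 24116 genes of the table, 49 with large-subunit (Mrpl) and 29 with small-subunit (Mrps) symbols. Such organoids are epithelial cultures that organise themselves, with stem cells that produce absorptive enterocytes and secretory cells. Polyadenylated RNA was sequenced from 2 cultures, each started from 1 of 2 male wild-type C57BL/6 littermates of 8 weeks, with RNA of each culture purified in duplicate. The groups were all-trans retinoic acid (atRA, 10 µM) on days 1, 3, 4 and 5, an antagonist of the retinoid X receptors (RXRi, 5 µM) on the same days, and the vehicle DMSO on days 0, 1, 3, 4 and 5. The 13 groups held 52 libraries.

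Every group was seeded at 50000 single cells per well, and the RNA of 3 wells was pooled. Compounds were given on day 0 and again on day 3, and from then on the medium no longer held CHIR99021, an inhibitor of GSK3, Y-27632, an inhibitor of ROCK, and Wnt3a-conditioned medium, which all groups had until then. Day 4 against day 3 therefore sets culture time and this change of medium side by side, and the pair cannot be told apart. No hours are given for day 0, so how it relates in time to seeding and to the vehicle is not known here. Effects of seeding and of the vehicle can thus not be told apart from culture time in day 1 against day 0. Only 2 animals stand behind each group, so n = 2 cultures throughout.

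Mitochondria have their own ribosomes, built from RNA encoded in mitochondrial DNA and from proteins encoded in the nucleus and imported. They translate the few proteins of mitochondrial DNA, all of them subunits of the respiratory chain and the ATP synthase. The mammalian mitochondrial ribosome has a high ratio of protein to RNA, with homologues of bacterial ribosomal proteins beside proteins found in mitochondria alone. In the intestinal crypt, proliferating cells and the enterocytes that replace them differ in their use of mitochondria. Transcripts of mitochondrial DNA were not analysed here.

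The promoters of 7 members described below are printed, as examples of each direction of change. Mrpl20 and Mrps26 had the largest rises on day 1 among the Mrpl and the Mrps genes, Mrps31, Mrps27 and Mrpl47 had the deepest falls with RXRi over the mean of the days, and Mrpl57 and Mrpl33 were higher with RXRi. Each runs from 250 bases before to 30 bases after the annotated start of transcription, 5′ to 3′ on the strand of the gene, from RefSeq on GRCm38.p6. Capitals mark matches to CCGGAAG (the core bound by ETS factors such as GABPA), AANATGGCG (YY1), GCGCATGCG (NRF1) or CACGTG (the E-box bound by MYC), in either direction.
Mrpl20, chr4:155802628-155802907, plus strand: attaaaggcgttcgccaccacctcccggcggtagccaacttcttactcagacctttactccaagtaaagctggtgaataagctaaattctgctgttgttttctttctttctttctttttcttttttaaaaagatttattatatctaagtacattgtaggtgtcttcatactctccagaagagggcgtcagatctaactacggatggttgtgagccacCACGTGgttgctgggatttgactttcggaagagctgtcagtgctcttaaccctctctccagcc
Mrps26, chr2:130563507-130563786, plus strand: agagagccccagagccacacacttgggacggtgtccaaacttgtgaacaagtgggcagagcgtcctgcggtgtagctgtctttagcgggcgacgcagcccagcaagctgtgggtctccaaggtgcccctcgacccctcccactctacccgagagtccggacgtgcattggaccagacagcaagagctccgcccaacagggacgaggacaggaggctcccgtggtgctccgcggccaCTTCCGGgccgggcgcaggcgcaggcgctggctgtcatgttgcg
Mrps31, chr8:22411090-22411369, plus strand: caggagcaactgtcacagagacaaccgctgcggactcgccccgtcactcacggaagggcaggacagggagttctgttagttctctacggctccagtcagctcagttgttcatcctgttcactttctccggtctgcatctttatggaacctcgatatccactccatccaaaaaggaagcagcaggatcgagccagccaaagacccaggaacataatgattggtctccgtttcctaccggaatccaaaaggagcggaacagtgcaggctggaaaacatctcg
Mrps27, chr13:99344536-99344815, plus strand: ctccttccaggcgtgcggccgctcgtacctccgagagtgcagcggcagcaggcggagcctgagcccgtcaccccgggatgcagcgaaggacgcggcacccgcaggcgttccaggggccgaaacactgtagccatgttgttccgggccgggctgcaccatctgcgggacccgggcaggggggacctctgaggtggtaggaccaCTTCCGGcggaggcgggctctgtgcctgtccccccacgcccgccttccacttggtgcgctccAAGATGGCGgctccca
Mrpl47, chr3:32736726-32737005, minus strand: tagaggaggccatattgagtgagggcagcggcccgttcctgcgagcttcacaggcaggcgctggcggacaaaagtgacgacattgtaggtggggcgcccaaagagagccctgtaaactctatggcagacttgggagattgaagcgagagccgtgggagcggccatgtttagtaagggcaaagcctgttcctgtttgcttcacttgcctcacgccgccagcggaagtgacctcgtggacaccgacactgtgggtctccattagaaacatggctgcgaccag
Mrpl57, chr14:57825989-57826268, plus strand: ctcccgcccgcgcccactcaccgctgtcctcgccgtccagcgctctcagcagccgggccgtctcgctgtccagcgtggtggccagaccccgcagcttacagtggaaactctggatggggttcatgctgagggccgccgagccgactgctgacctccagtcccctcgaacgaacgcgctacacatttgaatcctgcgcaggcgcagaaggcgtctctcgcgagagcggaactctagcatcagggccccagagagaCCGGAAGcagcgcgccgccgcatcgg
Mrpl33, chr5:31613701-31613980, plus strand: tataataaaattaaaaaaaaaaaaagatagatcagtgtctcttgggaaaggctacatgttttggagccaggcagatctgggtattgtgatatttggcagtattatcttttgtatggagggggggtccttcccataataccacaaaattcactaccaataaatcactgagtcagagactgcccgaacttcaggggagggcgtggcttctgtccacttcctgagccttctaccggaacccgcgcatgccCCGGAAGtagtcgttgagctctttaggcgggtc

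These 7 windows did not share a motif. The ETS core was printed in capitals in Mrps26, Mrps27, Mrpl57 and Mrpl33, Mrps27 also held a YY1 match just after its start, Mrpl20 held an E-box 33 bases before its start, and Mrpl47 and Mrps31 held none of these letters. The window of Mrps31 surrounds a start that lies inside the range given for the gene below. RefSeq promoters were matched for 69 of the 78 members, and the search covered 300 bases, to 50 bases after the start. The ETS core was found in 25 of these 69 (36.2%), against 18.8% of 9792 promoters of tested genes and 9.12% of all 27025 promoters. YY1 letters were in 15.9% of member promoters, against 5.51% of tested and 2.51% of all promoters. NRF1 letters were in 10.1% of member promoters, against 3.76% of tested and 1.81% of all promoters. The E-box was in 7.25% of member promoters, against 10.5% of tested and 7.24% of all promoters. GGGCGG, the box bound by SP1, was in 49.3% of member promoters, against 64.4% of tested and 35.9% of all promoters. TATAAA was in 5.80% of member promoters, against 7.75% of tested and 14.2% of all promoters, and TGACGTCA, the CRE, was in 2.90%, against 3.31% of tested and 1.88% of all promoters. Copies of AGGTCA in the same direction, spaced by 5 bases or by 1 base as retinoid receptors bind them, were in 0 of the 69 windows, and in 2 and 12 of all 27025. Motifs were searched on both strands, and overlaps between different motifs were allowed. The median GC content was 58.3% in member promoters, 60.7% in promoters of tested genes and 52.7% in all promoters. A match is a string of letters and says nothing of binding.

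All 78 members passed the filter for testing, at least 1 RPKM (reads of a gene relative to its length in kilobases and to the total reads of the library) in at least 4 of the 51 libraries used, and all were above 0 in each of these libraries. The reads recovered from the RPKM values gave 109 to 7394 reads per member and library, with a median of 1024.5. Mean levels over all groups spanned 8.38 RPKM for Mrps25 to 228 RPKM for Mrpl12, the stalk protein that recruits translation factors, with a median of 39.4 RPKM. Mrpl20 and Mrpl30, both homologues of bacterial large-subunit proteins, came next to Mrpl12, and Mrpl1 and Mrpl13 were next to Mrps25 at the low end. Members took 0.270% to 0.626% of the reads of a library. They lie on 17 chromosomes, with 11 of them on chromosome 11. Mrpl46 and Mrps11 on chromosome 7 run away from each other with 42 bases between them, and 1 pair of neighbouring members lay within 1000 bases.

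The totals of the 51 libraries, as recovered from the RPKM values, were 12895669 to 26206030 reads. The second library of the first culture of DMSO day 1 held 12443 reads and was left out, so this culture is represented by 1 library, and the counts of calls it moves are given with it as well. One estimate of the spread is shared by all groups in the fit, so it also bears on comparisons without day 1. Of 10 epithelial markers all 10 were tested, and Epcam and Cdh1, which mark epithelium, had lowest culture levels of 262 and 178 RPKM. Of 12 markers of non-epithelial cells 2 were tested, Acta2 and Lyz2, and Col3a1, a collagen of fibroblasts, was listed at 0 in every culture. The summed level of the non-epithelial markers was 0.847 to 50.5 RPKM per culture. In bulk RNA, fewer cells of a type and less RNA per cell cannot be told apart.

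In DMSO cultures the members rose together between day 0 and day 1. Summed over the 78 genes, their level was 4721 and 4359 RPKM in the cultures of day 1, against 3059 and 3211 RPKM on day 0. At an adjusted p below 0.05 (limma, Benjamini-Hochberg over 12443 genes), 62 of 78 were higher on day 1, where 25.6% of all tested genes were, and 1 was lower, where 35.6% of all tested genes were. The median log2 fold change was 0.55 over the members and -0.09 over all tested genes. Genes of both kinds of symbol took part, with 40 of 49 Mrpl and 22 of 29 Mrps genes higher. With the shallow library kept, 33 were higher and 5 lower, and leaving out 1 culture of either group gave 52 to 60 calls.

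**Figure D1:**
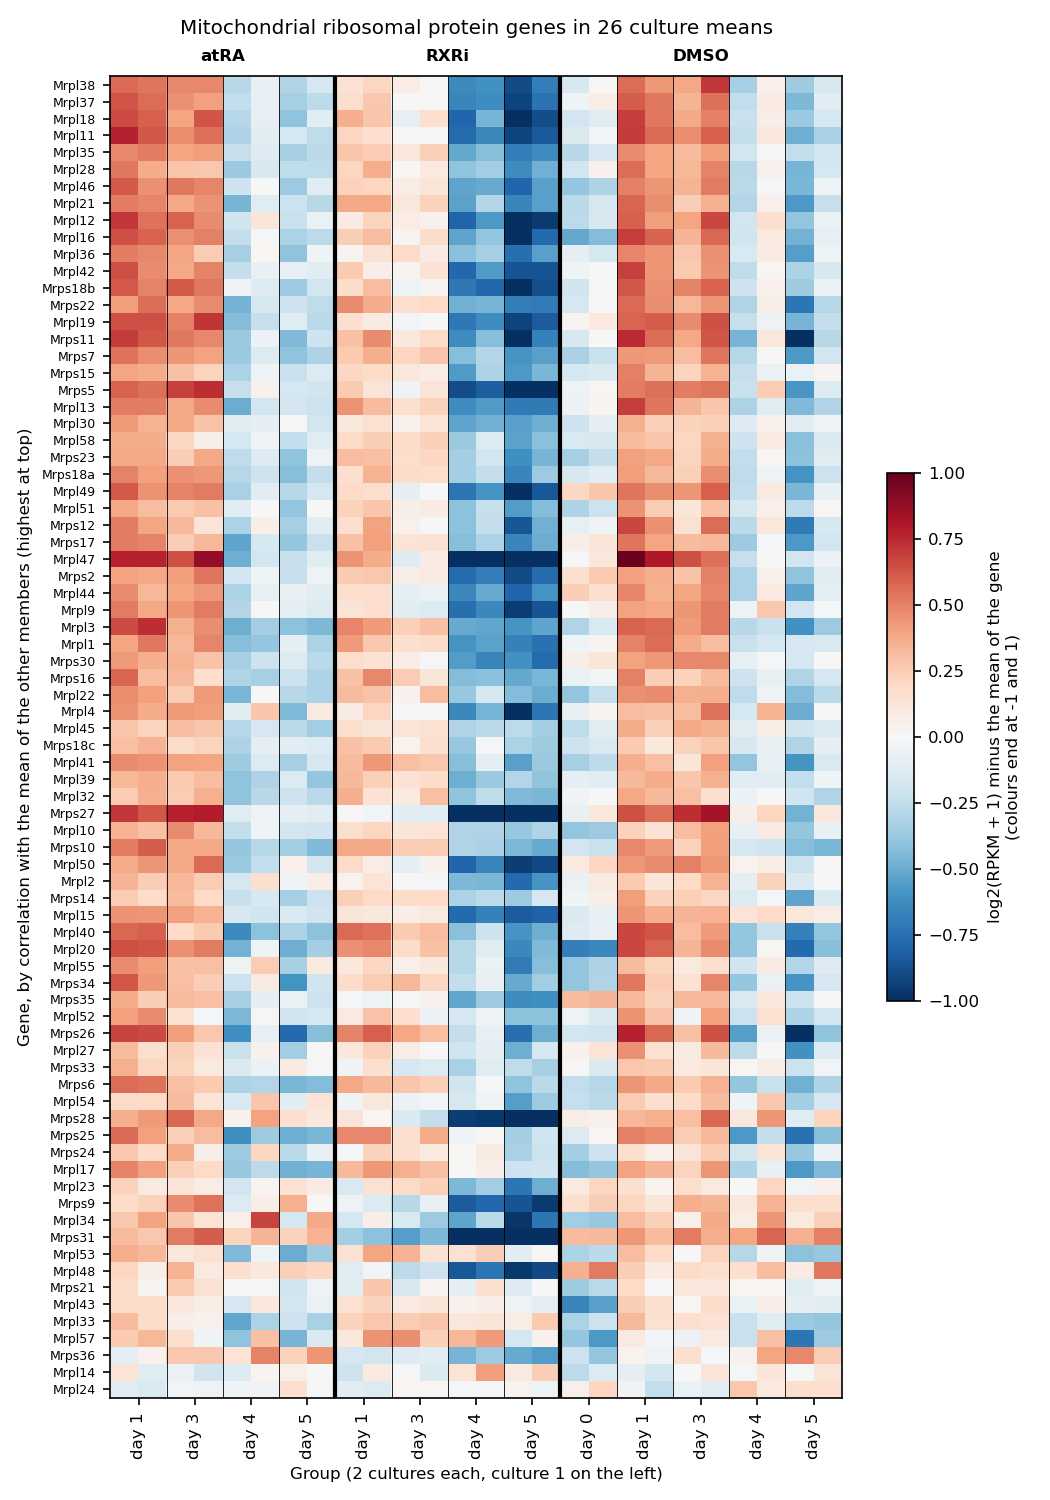
Heat map of log2(RPKM + 1) minus the mean of the gene, for 78 members (rows, by correlation with the mean of the other members) in 26 culture means (columns, 2 per group, in blocks for atRA, RXRi and DMSO). Red is above and blue below the mean of the gene; most rows are red on days 1 and 3, and the deepest blue is in RXRi on days 4 and 5, while the lowest rows, down to Mrpl24, do not follow the others.

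The largest rise among the Mrpl genes was that of Mrpl20 (chr4:155802878-155808831), whose bacterial homologue acts early in assembly. It had 196, 183 and 187 RPKM in the 3 libraries of day 1, against 78.3, 74.0, 75.0 and 81.6 RPKM in the 4 libraries of day 0. The groups stood far apart, and the log2 fold change was 1.29 ± 0.14 (SE, limma, adjusted p = 1.1e-06). Mrpl16 (chr19:11770415-11774956), a neighbour of the peptidyl transferase centre by homology, had 68.2, 63.9 and 63.0 RPKM on day 1, against 28.1, 29.8, 28.4 and 32.8 RPKM on day 0. Its log2 fold change of 1.12 ± 0.13 (adjusted p = 1.9e-06) came next, again without overlap.

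Among the Mrps genes Mrps26 (chr2:130563757-130565394), a protein of mitochondria with no bacterial homologue, rose most. It had 88.0, 74.1 and 79.3 RPKM on day 1, against 42.7, 47.4, 43.2 and 45.8 RPKM on day 0, with no overlap and a log2 fold change of 0.86 ± 0.23 (adjusted p = 0.0037). Mrpl3, mutated in a human cardiomyopathy of mitochondrial origin, changed by 0.81 ± 0.08. The stalk protein Mrpl12 changed by 0.72 ± 0.15 and Mrpl11, at the base of the stalk, by 0.72 ± 0.11. Mrps22, mutated in human mitochondrial disease, changed by 0.60 ± 0.13, and Mrps12, of the decoding centre, by 0.62 ± 0.19 (adjusted p = 0.0098), a call lost without culture 1 of either group. Mrpl44, mutated in a human cardiomyopathy, had a log2 fold change of 0.22 ± 0.14 that did not pass the test (adjusted p = 0.18).

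Of the 3 Mrps18 paralogs, which descend from 1 bacterial protein and take separate places in the ribosome, all passed the test on day 1. The log2 fold changes were 0.64 for Mrps18b, 0.51 for Mrps18a, which sits in the large subunit in mammalian structures, and 0.37 for Mrps18c. The paralogs thus differed in size of change, though these differences were not tested. Mrps18b shares 59.1% of its exon bases with other genes.

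Mrpl24 (chr3:87918131-87923450), a homologue of the bacterial assembly-initiating protein, was the 1 member that fell. It had 81.2, 71.1 and 68.9 RPKM on day 1, against 86.8, 85.1, 97.9 and 95.5 RPKM on day 0. All 3 libraries of day 1 were below the 4 of day 0, and the log2 fold change was -0.27 ± 0.08 (adjusted p = 0.01). The call was lost without culture 2 of day 0, without culture 2 of day 1 and under median-of-ratios scaling. Mrpl24 shares 38.2% of its exon bases with Rrnad1 on the opposite strand, whose own log2 fold change was -0.56 ± 0.16, and whether the counting used strand is not given in the sources used here. The part of Rrnad1 reads in this value was not tested.

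Between day 1 and day 3 no member passed the test. Of all tested genes 12.7% were called in either direction, and the members called were 0 in limma and 0 in limma-voom on recovered reads, with 4 at an unadjusted p below 0.05. With the culture as a block 2 were lower. The median log2 fold change of the members was -0.06.

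Between day 3 and day 4 the members fell. Their summed level was 3060 and 3643 RPKM on day 4, against 4164 and 4590 RPKM on day 3. On day 4, 55 of 78 were lower, where 34.3% of all tested genes were, and 1 was higher, where 20.5% of all tested genes were. The median log2 fold change was -0.43 over the members and -0.10 over all tested genes. Lower were 34 of 49 Mrpl and 21 of 29 Mrps genes, a difference that was not tested. Median-of-ratios scaling moved the median of all genes to 0.02 and left 36 members lower and 1 higher, with a member median of -0.27. Without culture 1 of DMSO day 4, 30 were called, and with the shallow library kept 0 were higher and 23 lower.

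The deepest fall was that of Mrps26, with 33.0, 36.1, 49.6 and 48.5 RPKM on day 4, against 61.2, 64.6, 85.0 and 75.5 RPKM on day 3. The groups did not overlap, culture 1 was the lower one in both, and the log2 fold change was -0.77 ± 0.23 (adjusted p = 0.0088), a call lost without culture 2 of day 3 or culture 1 of day 4. Mrpl3 had 20.9, 23.7, 23.6 and 23.0 RPKM on day 4, against 38.2, 36.0, 40.9 and 38.2 RPKM on day 3. Its log2 fold change of -0.72 ± 0.08 (adjusted p = 3.1e-06) came with libraries that lay close together within each day. Mrpl47 (chr3:32727497-32736755), a large-subunit protein of the L29 family, had 21.6, 27.3, 28.9 and 28.4 RPKM on day 4, against 49.5, 41.2, 45.0 and 40.4 RPKM on day 3, with no overlap and a log2 fold change of -0.71 ± 0.12.

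The log2 fold change on day 4 was -0.60 for Mrpl20, -0.50 for Mrpl16, -0.60 for Mrpl11 and -0.54 ± 0.15 for Mrpl12, all past the threshold. For Mrpl12 the call was lost without culture 2 of day 3, without culture 1 of day 4 and under median-of-ratios scaling, and for Mrpl20 without culture 1 of day 4. Mrpl44, which had not passed the test on day 1, fell by 0.55 on the log2 scale. Mrps12 had -0.43, which did not pass (adjusted p = 0.068). Mrpl24 again went the other way, with 101, 98.9, 87.3 and 90.9 RPKM on day 4, against 76.8, 82.0, 79.4 and 75.1 RPKM on day 3. Its groups did not overlap, and the log2 fold change was 0.27 ± 0.08 (adjusted p = 0.012), while Rrnad1 had -0.16 ± 0.16 (adjusted p = 0.42). This call too was lost without culture 2 of day 3 or culture 1 of day 4.

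**Figure D2:**
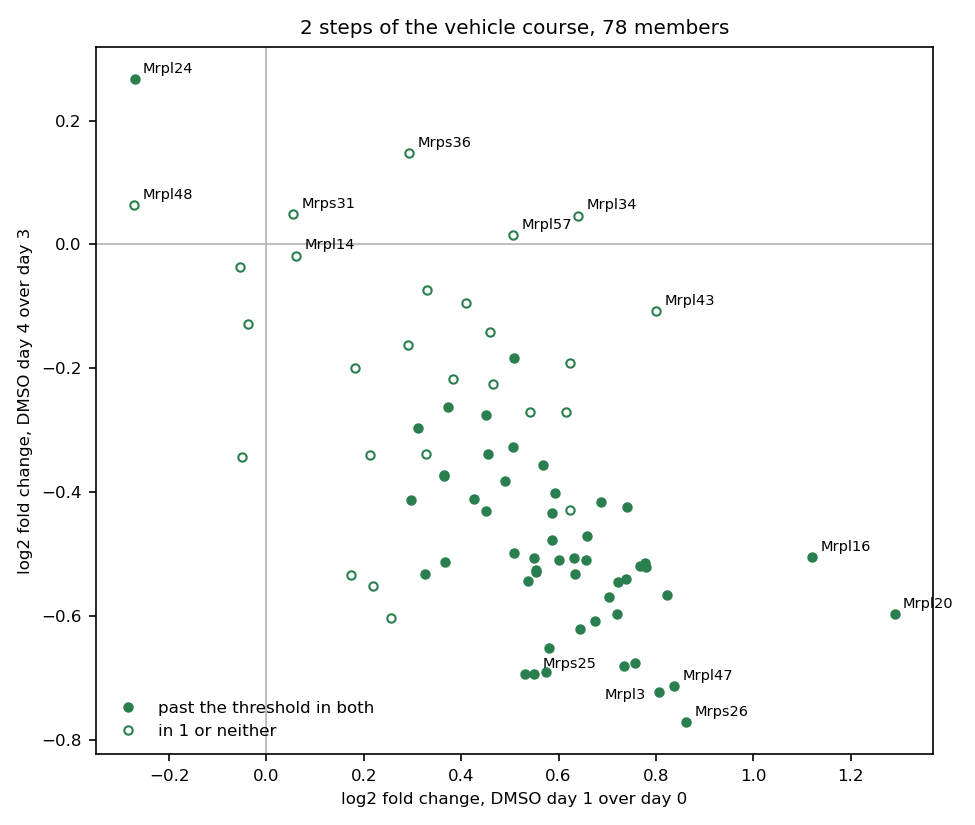
Scatter plot of the log2 fold change of DMSO day 4 over day 3 (vertical axis) against that of DMSO day 1 over day 0 (horizontal axis), 1 point per member. Filled points passed the threshold in both steps. By these calls 51 members were higher on day 1 and lower on day 4, and Mrpl24 is the 1 member called lower on day 1 and higher on day 4.

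The steps of day 1 and day 4 share no libraries, so they can be set side by side. Higher on day 1 and lower on day 4 were 51 of the 78 members, and 2042 of the 12443 tested genes (16.4%). Among all tested genes, 3188 were higher on day 1 and 4273 were lower on day 4. The 51 members were 82.3% of the 62 that rose and 92.7% of the 55 that fell. These are shares of called members, so they are not to be set against the 16.4%. The count was 28 without culture 1 of DMSO day 4 and 20 with the shallow library kept. Over the 78 members the log2 fold changes of the steps had a Pearson r of -0.61, given as a description across genes that share libraries within each step. Passing in neither step were 11 members, namely Mrpl2, Mrpl4, Mrpl14, Mrpl23, Mrpl27, Mrpl48, Mrps9, Mrps24, Mrps28, Mrps31 and Mrps36. The share of all tested genes that passed in neither step was not computed.

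Between day 4 and day 5, 0 members were called by limma and 0 by limma-voom, where 3.44% of all tested genes were called in either direction, and 18 had an unadjusted p below 0.05. With the culture as a block 3 were lower. Without culture 2 of DMSO day 5, 16 were called, and without culture 1 of DMSO day 4, 3. The median was -0.19.

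Day 5 and day 0, the ends of the DMSO course, were closer to each other than either was to day 1. The summed level was 2708 and 3198 RPKM on day 5, against 3059 and 3211 RPKM on day 0. On day 5, 4 members were higher (18.7% of all tested genes) and 21 lower (51.1% of all tested genes), with a median of -0.13 against -0.31 over all genes. Median-of-ratios scaling moves the median of all genes to 0.01 and turns the members to 32 higher and 0 lower, with a median of 0.24, so neither direction of the family holds across scalings here. Calls fell to 13 without culture 2 of day 0 or without culture 1 of day 5, and to 0 higher and 5 lower with the shallow library.

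Mrps36 (chr13:100735940-100744659), named for the small subunit and also reported as part of the 2-oxoglutarate dehydrogenase complex, had the largest rise. It had 25.8, 25.2, 21.4 and 21.7 RPKM on day 5, against 15.6, 15.2, 13.7 and 13.4 RPKM on day 0. Its groups did not overlap, and the log2 fold change was 0.66 ± 0.13 (adjusted p = 0.00022). Mrpl43 had 0.50 ± 0.09, with 27.5% of its exon bases shared with Twnk, and Mrpl34, the homologue of a small bacterial large-subunit protein, had 0.53 ± 0.20 (adjusted p = 0.027), lost without culture 1 or culture 2 of day 0 or without culture 2 of day 5. The lowest were Mrps11, a homologue of a bacterial platform protein, with -0.63, Mrps26 with -0.63 and Mrps25 with -0.53, and all 3 calls were lost under median-of-ratios scaling.

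**Figure D3:**
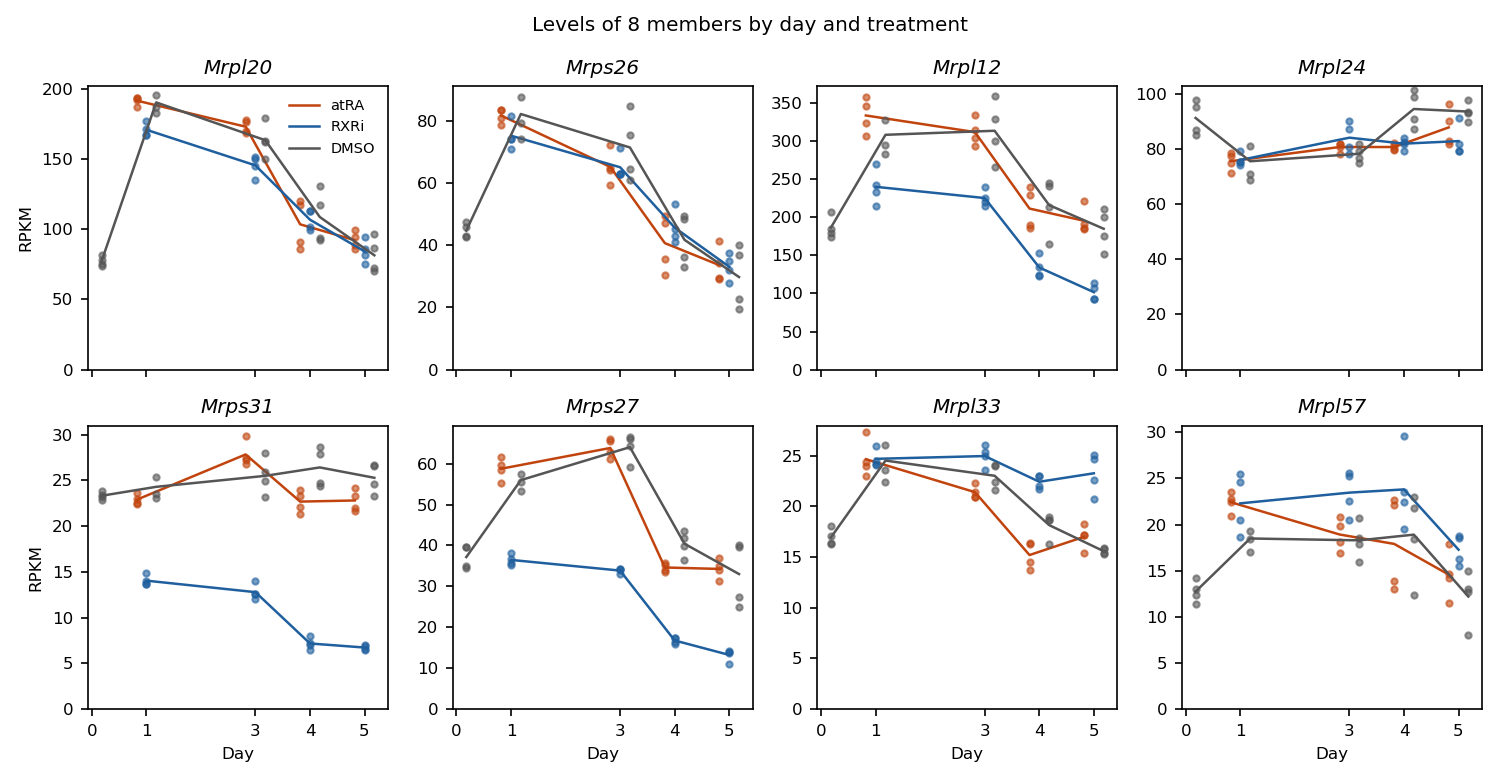
RPKM of 8 members against day, with 1 point per library and lines through the group means, for atRA, RXRi and DMSO. Points of the same culture are duplicates of its RNA and not independent cultures. Mrpl20, Mrps26 and Mrpl12 are highest on days 1 and 3 under all treatments, Mrpl24 stays within a narrow range, Mrps31 and Mrps27 are lowest with RXRi on days 4 and 5, and Mrpl33 and Mrpl57 are higher with RXRi on day 5.

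With RXRi the summed level of the members was below that with DMSO on each day. The sum was 3887 and 4080 RPKM with RXRi against 4721 and 4359 RPKM with DMSO on day 1. On day 3 it was 3622 and 3670 RPKM with RXRi, against 4164 and 4590 RPKM with DMSO. Day 4 gave 2549 and 2794 RPKM with RXRi, against 3060 and 3643 RPKM with DMSO, and day 5 gave 2211 and 2403 RPKM with RXRi, against 2708 and 3198 RPKM with DMSO. Both RXRi cultures were below both DMSO cultures on each of the 4 days.

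Lower were 11 members on day 1 (14.1% of the members, where 9.93% of all tested genes were lower) and 26 on day 3 (33.3%, against 25.4%). On day 4 there were 44 (56.4%, against 37.0%) and on day 5 there were 38 (48.7%, against 35.1%), so the counts of later days were larger both for the members and for all genes. Higher members numbered 0 on day 1 (10.5% of all tested genes), 0 on day 3 (18.4%), 5 on day 4 (22.0% of all tested genes) and 5 on day 5 (28.7%). The median log2 fold changes were -0.17, -0.19, -0.30 and -0.26 on days 1, 3, 4 and 5. On day 1 the count fell to between 3 and 7 without any 1 culture of either group, and was 5 higher and 13 lower with the shallow library. On day 3 it fell to 15 without culture 2 of DMSO and to 16 without culture 1 of RXRi. With the shallow library 8 were lower on day 3, 19 on day 4 and 22 on day 5, and 1 was higher, on day 5.

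Over the mean of the 4 days, 55 members were lower (42.8% of all tested genes) and 5 higher (30.1% of all tested genes), with a median of -0.24, against -0.07 over all genes. With the shallow library 30 were lower and 1 higher. Of the Mrpl genes 36 of 49 were lower and 4 higher, and of the Mrps genes 19 of 29 were lower and 1 higher. Past the threshold on all 4 days were 10 members, all lower, namely Mrpl11, Mrpl15, Mrpl19, Mrpl37, Mrpl47, Mrpl50, Mrps27, Mrps30, Mrps31 and Mrps35, where 7.43% of all tested genes were lower on all 4 days. This count rests on the calls of day 1: it was 3 and 6 without culture 1 and culture 2 of DMSO day 1, 6 and 4 without culture 1 and culture 2 of RXRi day 1, and 6 with the shallow library kept. Lower on no day were 31, on 1 day 9, on 2 days 14 and on 3 days 14. Of the 11 members that passed in neither DMSO step, 8 were lower with RXRi over the mean. The matching shares of all tested genes were not computed for these counts, so they do not set the members apart from other genes.

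Mrps31 (chr8:22410449-22429669), a small-subunit protein found in mitochondria alone, had the deepest fall with RXRi, and it was among the 11 members without a called step in DMSO. On day 1 it had 14.9, 14.0, 13.6 and 13.7 RPKM with RXRi, against 25.3, 23.5 and 23.1 RPKM with DMSO. On day 5 it had 6.93, 6.58, 6.97 and 6.44 RPKM with RXRi, against 23.3, 24.7, 26.6 and 26.7 RPKM with DMSO. The groups did not overlap on either day, and DMSO libraries stayed within a narrow range from day 1 to day 5. Its log2 fold changes were -0.75, -0.94, -1.75 and -1.76 on days 1, 3, 4 and 5, and -1.30 ± 0.04 over the mean (adjusted p = 5.4e-14). It shares no exon bases with another gene.

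Mrps27 (chr13:99344767-99415562), a pentatricopeptide repeat protein of the small subunit, came next. On day 5 it had 14.3, 11.1, 13.6 and 14.0 RPKM with RXRi, against 24.9, 27.4, 40.2 and 39.6 RPKM with DMSO. The groups stood apart, with the DMSO cultures differing more from each other than the RXRi cultures did, and the mean log2 fold change was -0.99 ± 0.06 (adjusted p = 3.3e-10). Ptcd2, whose start lies 81 bases away in the opposite direction, had -0.76 ± 0.05. Mrps27 shares 22.6% of its exon bases with 6430562O15Rik.

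Mrpl47 had 9.35, 9.64, 10.7 and 9.88 RPKM with RXRi on day 5, against 23.2, 27.1, 25.9 and 29.3 RPKM with DMSO. There was no overlap, and the mean log2 fold change was -0.89 ± 0.06. It shares 18.1% of its exon bases with Actl6a and Ndufb5, on the opposite strand, whose log2 fold changes were -0.43 and -0.79.

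Mrps28 (chr3:8802146-8923857), a small-subunit protein, and Mrpl48 (chr7:100545779-100608301), a large-subunit protein, passed the test with RXRi from day 3 on. On day 1 Mrps28 had 33.9, 36.5, 34.4 and 30.8 RPKM with RXRi, against 40.6, 39.3 and 43.4 RPKM with DMSO, and on day 5 it had 11.1, 11.7, 12.96 and 13.4 RPKM with RXRi, against 25.3, 33.4, 38.3 and 36.7 RPKM with DMSO. The log2 fold change of day 1 was -0.27, which did not pass (adjusted p = 0.19), while those of days 3, 4 and 5 were -0.63 ± 0.14, -1.23 ± 0.14 and -1.36 ± 0.14. Mrpl48 had 24.0, 22.3, 24.4 and 25.4 RPKM with RXRi on day 1, against 30.2, 28.2 and 25.6 RPKM with DMSO. On day 5 it had 13.5, 11.5, 12.7 and 13.4 RPKM with RXRi, against 24.6, 29.0, 38.8 and 35.1 RPKM with DMSO. Its groups lay close on day 1 but did not overlap (log2 fold change -0.24, adjusted p = 0.19). The log2 fold changes of Mrpl48 on days 3, 4 and 5 were -0.41 ± 0.12, -1.03 ± 0.12 and -1.24 ± 0.12. Mrps28 had no overlap on day 1 either, so separate libraries occurred without a call. On day 1 the RXRi libraries lay wholly below those of DMSO for 39 of 78 members and 25.9% of all tested genes.

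Among the members with a known role, the mean log2 fold change with RXRi was -0.59 for the stalk protein Mrpl12, -0.52 for Mrpl11, -0.41 for Mrpl44, -0.21 for Mrps22, -0.27 for Mrps12 and -0.16 for Mrpl3, all past the threshold. The call of Mrps12 (adjusted p = 0.017) was lost under median-of-ratios scaling and without culture 2 of DMSO day 3, culture 2 of DMSO day 5 or culture 1 of RXRi day 5. Of the Mrps18 paralogs Mrps18b fell by 0.56, while Mrps18a had -0.14 (adjusted p = 0.063) and Mrps18c had -0.07 (adjusted p = 0.22). Mrpl20 and Mrps26, the largest risers of day 1 among the Mrpl and the Mrps genes, had -0.07 ± 0.07 and 0.02 ± 0.11 with RXRi.

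**Figure D4:**
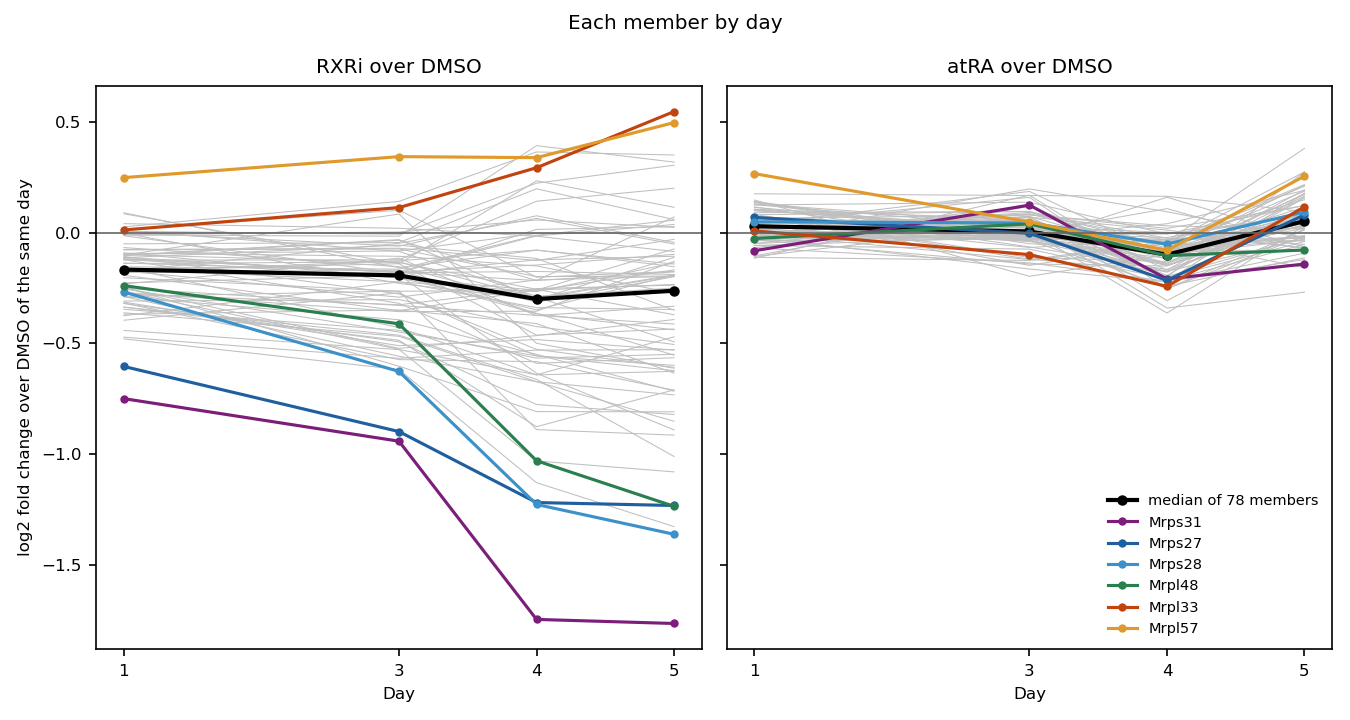
Log2 fold change over DMSO of the same day (vertical axis) against day, for RXRi (left) and atRA (right). Each member has 1 grey line, with the median of the 78 members in black and 6 members in colour. With RXRi, Mrps31, Mrps27, Mrps28 and Mrpl48 run from -0.75, -0.60, -0.27 and -0.24 on day 1 to -1.76, -1.23, -1.36 and -1.24 on day 5, while Mrpl33 and Mrpl57 lie above 0 on day 5.

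The 5 members higher with RXRi over the mean of 4 days were Mrpl57, Mrpl33, Mrpl53, Mrps25 and Mrpl17. Mrpl33 (chr5:31613951-31622644), a small homologue of a bacterial large-subunit protein, had 22.6, 20.8, 24.7 and 25.04 RPKM with RXRi on day 5, against 15.9, 15.4, 15.8 and 15.3 RPKM with DMSO. The groups stood clear of each other, and the log2 fold change was 0.55 ± 0.09 on day 5 (adjusted p = 3.5e-05) and 0.24 ± 0.04 over the mean. It shares 22.4% of its exon bases with the predicted gene Gm43809.

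Mrpl57 (chr14:57826228-57829087), a large-subunit protein of mitochondria, had 15.5, 16.3, 18.5 and 18.8 RPKM with RXRi on day 5, against 8.05, 13.05, 15.0 and 12.7 RPKM with DMSO. All RXRi libraries were above all DMSO libraries, and the log2 fold change was 0.50 ± 0.21 (adjusted p = 0.048) on day 5 and 0.36 ± 0.11 over the mean (adjusted p = 0.0057). The day 5 call was lost in limma-voom, without the filter on low values, without culture 1 of DMSO and without either culture of RXRi. Ska3, whose start lies 49 bases away in the opposite direction, had a mean of -0.44. The mean log2 fold change was 0.22 ± 0.06 for Mrpl53, 0.17 ± 0.06 for Mrps25 and 0.13 for Mrpl17. All exon bases of Mrpl53 and 58.2% of those of Mrps25 lie also in other genes, and for Mrps25 the call was lost without culture 2 of RXRi day 3, culture 1 of DMSO day 4, culture 1 of DMSO day 5 or culture 2 of RXRi day 5.

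The change of the RXRi effect with time was tested as the day 5 effect minus the day 1 effect. It was past the threshold and negative for 16 members (23.6% of all tested genes) and positive for 1 (17.8% of all tested genes), with a median of -0.13, against -0.05 over all genes, and it was negative for 8 and positive for 1 with the shallow library. The most negative were Mrps28 with -1.09 ± 0.20 (adjusted p = 0.00026), Mrps31 with -1.01 ± 0.13 (adjusted p = 6.3e-06) and Mrpl48 with -0.996 ± 0.17 (adjusted p = 0.0002). Mrpl33 was the positive one, with 0.53 ± 0.12 (adjusted p = 0.0023).

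With atRA few members differed from DMSO. The summed level was 4756 and 4556 RPKM with atRA on day 1, against 4721 and 4359 RPKM with DMSO, and 4433 and 4340 RPKM with atRA on day 3, against 4164 and 4590 RPKM with DMSO. On day 4 it was 2868 and 3390 RPKM with atRA, against 3060 and 3643 RPKM with DMSO, and on day 5 it was 2944 and 3120 RPKM with atRA, against 2708 and 3198 RPKM with DMSO. The ranges of the atRA and DMSO cultures overlapped on each of the 4 days.

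Called members were 0 on day 1 (3.46% of all tested genes in either direction) and 0 on day 3 (8.68% in either direction). Both counts were 0 in limma-voom, and 0 members had an unadjusted p below 0.05 on either day. On day 4, 3 were lower (7.35% of all tested genes), on day 5, 1 (2.89%), and over the mean of 4 days, 3 (15.0%). Median-of-ratios scaling left 0 on day 4 and 0 over the mean. With the shallow library 0 were called on day 4, on day 5 and over the mean. Leaving out any 1 culture left 1 on day 4, between 0 and 4 on day 5 and between 1 and 5 over the mean.

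Mrpl15, a homologue of a bacterial large-subunit protein, was called on both days. It had 20.4, 19.5, 18.8 and 20.0 RPKM with atRA on day 4, against 22.7, 26.7, 24.9 and 26.6 RPKM with DMSO. The groups did not overlap, and the log2 fold change was -0.34 ± 0.06 on day 4 (adjusted p = 0.002), -0.27 ± 0.06 on day 5 (adjusted p = 0.016) and -0.13 ± 0.03 over the mean (adjusted p = 0.005). The calls of day 4 and of the mean were lost under median-of-ratios scaling, and that of day 5 without culture 1 of DMSO or culture 2 of atRA. The other calls were Mrpl50 (-0.36 ± 0.10) and Mrpl32, which is matured by a mitochondrial protease (-0.31 ± 0.09), on day 4, and Mrps30 (-0.13 ± 0.04) and the membrane-facing Mrpl45 (-0.12 ± 0.04) over the mean. The day 4 calls of Mrpl50 and Mrpl32 were lost without any 1 culture of either group, and those of Mrps30 and Mrpl45 without culture 2 of atRA day 1, among others.

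The atRA effect on day 5 minus that on day 1 was called for 0 members in limma and 0 in limma-voom, with 1 at an unadjusted p below 0.05, where 1.15% of all tested genes were called in either direction. In atRA against RXRi over the mean of 4 days, 52 members were higher with atRA (40.8% of all tested genes) and 4 lower (34.3% of all tested genes), with a median of 0.25, against 0.04 over all genes, and 30 were higher and 1 lower with the shallow library. The largest were Mrps31 with 1.22 ± 0.04, Mrps27 with 0.97 ± 0.06 and Mrps28 with 0.90 ± 0.07, and the lowest were Mrpl33 with -0.30, Mrpl53 with -0.22 and Mrps25 with -0.17. Both drug comparisons with DMSO share its libraries, so their values are given side by side and not correlated.

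Markers of cell types and of the cell cycle moved in the same samples. Of all tested genes 25.6% were higher and 35.6% lower on DMSO day 1, and 20.5% higher and 34.3% lower on DMSO day 4. With RXRi 30.1% were higher and 42.8% lower over the mean, and 35.1% were lower on day 5. With atRA 15.0% were lower over the mean and 4.32% were higher on day 3. The marker lists were not tested against these shares. Of 20 proliferation genes, 18 were higher and 0 lower on DMSO day 1 than on day 0 (median 0.74), and 0 were higher and 20 lower on day 4 than on day 3 (median -1.04). With RXRi, 19 of the 20 were lower over the mean (median -0.71), and with atRA 2 were lower (median -0.12). Their summed level was 1813 and 1750 RPKM on DMSO day 1, against 1105 and 1082 RPKM on day 0, and 275 and 374 RPKM with RXRi on day 5, against 622 and 843 RPKM with DMSO. The proliferation genes and the members were thus higher and lower in the same DMSO steps, and the part of cell proliferation in the change of the members was not tested.

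All 10 enterocyte markers were tested, among them Fabp1, a fatty acid binding protein, and Alpi, the intestinal alkaline phosphatase. Their summed level was 4191 and 4708 RPKM on DMSO day 4, against 229 and 250 RPKM on day 3, with 9 of 10 higher. With atRA on day 3 it was 8233 and 8576 RPKM, against 229 and 250 RPKM with DMSO, with 9 of 10 higher and 0 of 78 members called. With RXRi on day 5 it was 118 and 89.5 RPKM, against 11625 and 15009 RPKM with DMSO, with all 10 lower, and lactase (Lct) was listed at 0 in culture 1 of RXRi. Enterocyte markers and members thus went opposite ways between DMSO days 3 and 4 and the same way with RXRi. The intestinal stem cell markers summed to 425 and 415 RPKM on DMSO day 1, against 1710 and 1656 RPKM on day 0, with 8 of 10 lower and 1 higher while the members were higher, and with RXRi 8 of 10 were lower over the mean. The secretory markers summed to 734 and 526 RPKM with RXRi on day 5, against 1806 and 1945 RPKM with DMSO, and 7 of 9 tested were lower over the mean and 0 higher, among them the lysozyme Lyz1 of Paneth cells with -4.83 ± 0.13.

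Of the 10 epithelial markers, 6 were lower and 4 higher with RXRi over the mean, with Epcam at -0.92 ± 0.05 and the keratin Krt19 at 1.68 ± 0.07. The 12 markers of non-epithelial cells summed to 1.24 and 1.30 RPKM with RXRi on day 5, against 23.2 and 32.8 RPKM with DMSO. Nearly all of the DMSO sum was Lyz2, with 22.2 and 31.9 RPKM, a close paralog of Lyz1 whose reads may be split between the copies by the counting, so its value is uncertain. Acta2, a smooth muscle actin, had 0.972 and 1.15 RPKM with RXRi on day 5, against 0.847 and 0.748 RPKM with DMSO, and did not pass the test. The part of any of these cell types in the member values was not tested.

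**Figure D5:**
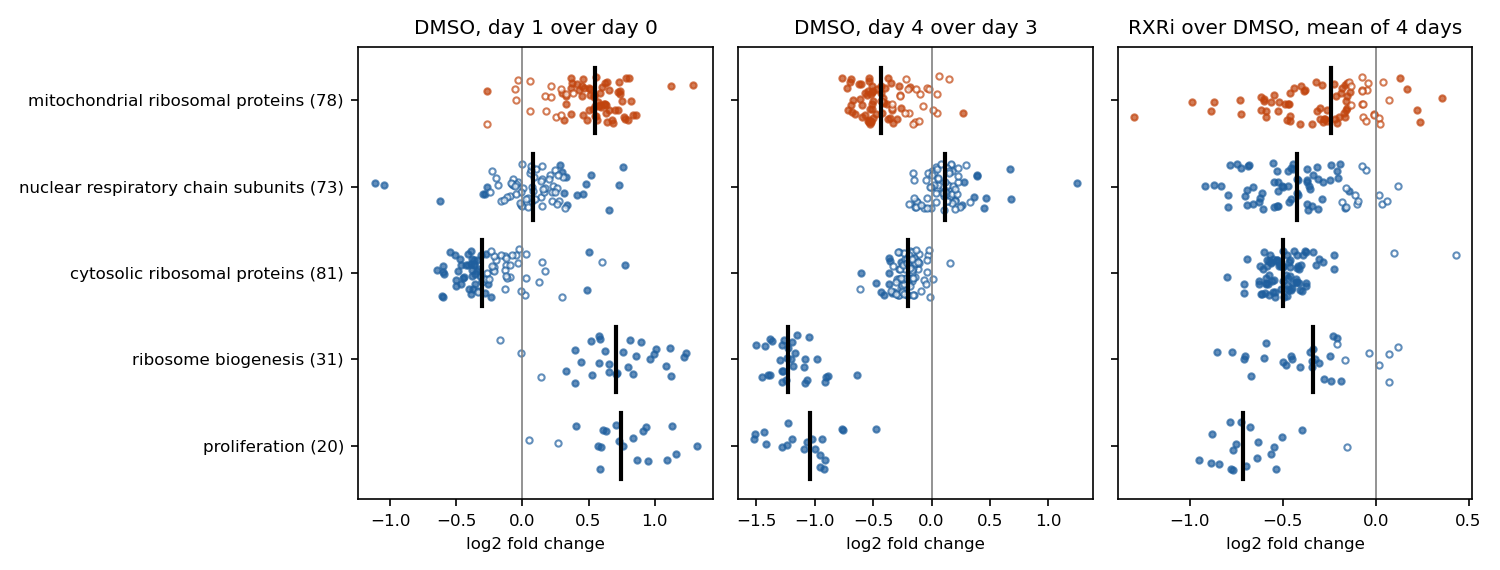
Log2 fold change (horizontal axes) of each tested gene of 5 lists (rows, number of genes in brackets) for DMSO day 1 over day 0, DMSO day 4 over day 3 and RXRi over DMSO as the mean of 4 days. Filled points passed the threshold and bars are medians; the members share the signs of ribosome biogenesis and proliferation in all panels, with medians of 0.55, -0.43 and -0.24, while cytosolic ribosomal proteins have -0.31 on day 1.

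The cytosolic ribosomal protein genes, which build the ribosomes of the cytoplasm, were mostly lower on day 1, when the members were mostly higher. Of 81 tested, 3 were higher and 43 lower (median -0.31), where the members had 62 higher and 1 lower. Of all tested genes 25.6% were higher and 35.6% lower in this step. On day 4, 13 of the 81 were lower than on day 3 (median -0.20), where 34.3% of all tested genes were. With RXRi 42.8% of all tested genes were lower over the mean. With RXRi, 79 of 81 were lower over the mean (median -0.50), among them Rpl5 with -0.71 ± 0.05. Genes of ribosome biogenesis, which make and process the rRNA of the cytosolic ribosome, had 28 of 31 higher on day 1 (median 0.71) and 31 of 31 lower on day 4 (median -1.23). With RXRi 24 were lower (median -0.34), and Ncl and Npm1, nucleolar proteins, had -1.42 ± 0.16 on day 4 and -0.78 ± 0.07 with RXRi.

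The 73 nuclear genes of respiratory chain subunits, the complexes to which the products of the mitochondrial ribosome are added, showed neither DMSO step for most genes. On day 1, 12 were higher and 6 lower (median 0.08), and on day 4, 11 were higher and 0 lower (median 0.12), where 55 members were lower. With RXRi 61 were lower and 0 higher (median -0.42), among them Sdha, the catalytic subunit of succinate dehydrogenase, with -0.80 ± 0.03. Members and respiratory chain genes were thus mostly lower with RXRi, while most respiratory chain genes were called in neither direction in the DMSO steps.

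Nuclear genes that act on or beside the mitochondrial ribosome were followed in 5 lists. Of 5 proteins of this ribosome that carry other symbols, 4 were higher on day 1, 4 lower on day 4 and 3 lower with RXRi. Aurkaip1 had 0.81 ± 0.10 on day 1, and Ptcd3, a pentatricopeptide repeat protein of the small subunit, had -0.88 ± 0.12 on day 4 and -0.62 ± 0.06 with RXRi. Of 14 mitochondrial translation factors, 7 were higher and 1 lower on day 1, 7 lower on day 4 and 12 lower with RXRi. The elongation factor gene Gfm1 had 0.92 ± 0.14 on day 1 and -0.71 ± 0.14 on day 4, and Lrpprc, which stabilises mitochondrial mRNA, had -0.86 ± 0.06 with RXRi.

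Of 22 assembly factors of the mitochondrial ribosome, 8 were higher and 1 lower on day 1, 13 lower on day 4, and 14 lower and 2 higher with RXRi. Fastkd2, an RNA-binding protein of mitochondria, had -1.05 ± 0.13 on day 4 and -0.85 ± 0.07 with RXRi. Of 17 mitochondrial aminoacyl-tRNA synthetases, which charge tRNAs, 6 were higher and 1 lower on day 1, 12 lower on day 4 and 16 lower with RXRi, with Yars2 at 0.85 ± 0.14 and then -1.02 ± 0.14 in the DMSO steps. Of 8 genes that maintain and transcribe mitochondrial DNA, 1 was higher and 1 lower on day 1, 1 higher and 6 lower on day 4, and 6 lower and 1 higher with RXRi. Tfam, the packaging and transcription factor of mitochondrial DNA, had -0.98 ± 0.05 with RXRi, and Twnk, the helicase of mitochondrial DNA, had -0.85 ± 0.07.

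Regulators named for nuclear genes of mitochondria were 9. Their summed level was 244 and 243 RPKM on DMSO day 1, against 185 and 181 RPKM on day 0. With RXRi on day 5 it was 157 and 161 RPKM, against 163 and 175 RPKM with DMSO, so the cultures lay close. The genes named next were picked for their small p and do not stand for the list. Myc had 0.81 ± 0.17 on day 1 and -0.73 ± 0.17 on day 4, and Nrf1, whose motif is given with the promoters, had 0.40 ± 0.10 and -0.51 ± 0.10. With RXRi, Ppargc1b, a coactivator of nuclear receptors, had -1.12 ± 0.04, and Gabpa, the ETS factor, had -0.48 ± 0.06. RNA levels of a regulator do not show its activity.

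Over the 26 culture means most members followed one another. The correlation of a member with the mean of the other members was highest for Mrpl38 and Mrpl37 (r = 0.985 each) and Mrpl18 (0.984), and lowest for Mrpl24 (-0.50), Mrpl14 (-0.39) and Mrps36 (0.30). Over the 3003 pairs of members the median r was 0.82, with a range of -0.72 to 0.99, and 94.4% of pairs were above 0. All values share the groups and libraries. The median r of the tested genes that are no members with the member mean was 0.20. This is a correlation with a mean, unlike the pairwise 0.82, and pairwise r among the other genes was not computed. Mrpl14, which the assembly factor Malsu1 binds, had 54.2, 61.5, 65.6 and 63.9 RPKM with RXRi on day 5 and 49.0, 58.4, 62.2 and 56.8 RPKM with DMSO, and passed the test in neither DMSO step nor with RXRi.

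Among the genes outside the family whose pattern was most like the member mean over the 26 culture means were Tsfm (r = 0.989), Ifrd2 (0.984), Stoml2 (0.983) and Phf5a (0.983). Tsfm encodes a mitochondrial elongation factor, Stoml2 a protein of the mitochondrial inner membrane and Phf5a a splicing factor. On day 1 the log2 fold changes were 0.74 ± 0.15 for Tsfm, 0.91 ± 0.18 for Ifrd2 and 0.89 ± 0.16 for Phf5a, and with RXRi they were -0.39 ± 0.07, -0.42 ± 0.09 and -0.51 ± 0.08. These genes were chosen for this likeness, so their values are a description.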

How the data were processed

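The deposited table holds RPKM for 52 libraries, as its file headers say, that is, reads relative to the length of a gene and to all reads of the library, and its columns were matched to the labels by title. The submitters' processing notes name bcl2fastq 2.17, STAR 2.5.2b and mm10. How reads were counted, on which annotation and with or without strand, is not given in the sources used here. RPKM divides by the total of a library, so members can move when the share of other genes moves. Values of 19707 of 19708 genes above 0 came out as whole reads within 0.001 of a read (99.9949%), and these reads gave the depth of 12895669 to 26206030 reads per library and 1 alternative test. One further library, duplicate 2 of culture 1 in DMSO day 1, held 12443 reads and was left out.

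Duplicates of a culture were averaged as log2(RPKM + 1), on which the change of a low gene comes out too small. limma 3.58.1 in R 4.3.3 (trend and robust) was fitted to 26 culture means over all 13 groups at once, with 13 residual degrees of freedom, on the 12443 genes that reached 1 RPKM in 4 or more libraries; 11673 genes were not tested. Each two-sided test was adjusted after Benjamini and Hochberg (BH) over all tested genes, with a threshold of 0.05, and ± is the standard error of that fit. Where nothing else is said, a called member passed this threshold. This fit was also run on simulated data in which the changed genes were known. The outcome of that run is not given here, and nothing is concluded from it.

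The members, lists and tests were chosen with earlier results of these data known. Named members were up to 3 with the largest change each way in a comparison among those called, the 3 highest and 3 lowest in level and in correlation with the other members, the Mrps18 paralogs and 6 members chosen for their roles. Non-members alike to the member mean were the 5 with the highest correlation. One of these is not reported here. From each other list up to 4 genes with the smallest p were eligible. The 11 members called in neither DMSO step, the 10 lower on all 4 days, and Ndufb5, Actl6a, Rrnad1, Ptcd2, Ska3, Twnk, Gm43809, 6430562O15Rik and the pair Mrpl46 and Mrps11 as neighbours were named for a count or an overlap, outside this rule.

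Same-numbered cultures come from the same animal, per the labels. Over the 78 pairs of groups, r between their deviations from the group mean had a median of 0.149 (-0.317 to 0.759) and was above 0.1 in 47, and the culture is a block in an alternative. Promoters and coordinates come from RefSeq on GRCm38.p6, matched for 69 and 78 members, and overlaps of exons from the GENCODE annotation. The design text counts 4 treatment conditions where the labels name 3, which are the ones analysed here.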

Additional observations from a re-analysis of the deposited data

Results flagged for a closer look

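The RXRi effect differed between day 5 and day 1, by the test of the difference itself, for 17 members. It was negative for 16 (20.5% of the members, where 23.6% of all tested genes were) and positive for 1 (1.28%, where 17.8% of all tested genes were), so negative changes were near the share over all genes. The most negative differences were -1.09 for Mrps28, -1.01 for Mrps31 and -0.996 for Mrpl48, and Mrpl33 had 0.534 (log2, limma). All 4 libraries of RXRi day 5 lay below all 4 of DMSO day 5 for the first 3 of these genes and above them for Mrpl33. Such separation was common on day 5, with 38 of 78 members wholly below and 5 wholly above. Of all tested genes 35.2% were wholly below and 28.5% wholly above. These genes were named for their large changes, and libraries of a culture are duplicates, so the separation does not set them apart.

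The library of DMSO day 1 that was left out of the comparisons held 65 reads in the members, with 39 members above 0 and 39 at 0. This is 0.522% of its reads, against 0.609% in the other library of that culture.

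In 12 groups of 4 libraries, 0 had a library apart from the others in its mean member level by Dixon's test. Over 38 named members, 19 of 456 sets of 4 libraries were past the critical value (4.17%), where chance flags about 1 in 20.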

How the results depend on the processing

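Of 100 results of named members past the threshold, a pseudocount of 0.1 and the replicate block by culture changed 0, limma-voom and no filter lost 2 each and median-of-ratios scaling lost 15. The counts of members called moved by over 1.5 times as follows. Median-of-ratios scaling gave 37 for DMSO day 4 against day 3, 0 for atRA day 4 and 0 for the atRA mean. No filter gave 1 for DMSO day 5 against day 4. With the replicate block, 2 were called for DMSO day 3 against day 1 and 3 for day 5 against day 4, and the block moved no other count by that much.

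With the shallow library kept, counts were 38 for DMSO day 1 against day 0, 23 for day 4 against day 3, 5 for day 5 against day 0, 0 for atRA day 4, 0 for atRA day 5, 0 for the atRA mean, 18 for RXRi day 1, 8 for day 3, 19 for day 4, 23 for day 5, 31 for the RXRi mean, 31 for atRA against RXRi, 9 for the change of the RXRi effect, 20 for higher on DMSO day 1 and lower on day 4 and 6 for lower with RXRi on all 4 days (these counts over several comparisons were added after seeing the data). It lost 44 of the 100 named results and turned 15 round: on DMSO day 1 against day 0, Mrpl1 -0.44, Mrpl12 -1.37, Mrpl16 -0.41, Mrpl37 -1.06, Mrps12 -0.98, Mrps18a -1.06, Mrps18b -0.91, Mrps18c -1.03, Mrps22 -0.47, Mrps25 -0.37 and Mrps26 -0.76, for the atRA mean Mrpl45 0.24, for RXRi day 1 Mrpl47 0.99, and for the RXRi mean Mrps12 0.13 and Mrps22 0.059. That library holds 12443 reads, and 39 of the 78 members are at 0 in it.

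Leaving out 1 culture gave 13 to 32 calls for DMSO day 5 against day 0, 30 to 61 for day 4 against day 3, 0 to 16 for day 5 against day 4, 1 to 5 for the atRA mean, 1 for atRA day 4, 0 to 4 for atRA day 5, 3 to 7 for RXRi day 1 and 15 to 21 for RXRi day 3. It gave 28 to 54 for higher on DMSO day 1 and lower on day 4, and 3 to 11 for lower with RXRi on all 4 days. It was 52 to 60 for DMSO day 1 against day 0, 34 to 50 for RXRi day 4, 36 to 52 for RXRi day 5, 53 to 62 for the RXRi mean, 52 to 58 for atRA against RXRi and 13 to 21 for the change of the RXRi effect. A group with 1 culture left is assumed to vary like the others, and the cause of each move was not tested.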
